A study of Mus musculus with 12 samples.

Results

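Thap4, D2hgdh, Stk25, Ramp1, Kdm5b and Gin1 are 6 genes of mouse chromosome 1 whose signals in regulatory T cells (Tregs) followed the genotype of Il10, a gene of the same chromosome. They were chosen on these arrays for differing between Il10 genotypes, after Ctse, Ap1s3, Mcm6 and Bcl2 had been set aside. Their difference by Il10 genotype is therefore a description and carries no test. All probe sets that name 1 of the genes were taken, 16 of the 45037 on the array that are not controls, for 6 of the 18193 genes with a probe set of their own. A probe set is a group of short probes whose combined brightness gives 1 signal, and a gene can have several. All 16 passed the filter on low signals that left 31235 probe sets for testing.

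RNA came from Tregs purified by flow cytometry and measured fresh, without treatment, on 12 Affymetrix arrays. The genotypes were Ebi3 –/– Il10 –/– (the double knockout), Il10 –/–, Ebi3 –/– and wild type, with 3 arrays each. Each of the 3 batches named in the labels holds 1 array of every genotype and has the same number as the replicate. The labels give no strain, age, sex or targeted allele, and do not say whether the replicates were separate animals, so the spread between them may be technical.

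IL-10 is a cytokine with which Tregs and other cells restrain immune responses, and Ebi3 is a chain shared by several cytokines of the IL-12 family. Thap4 encodes a protein with a THAP zinc finger, a DNA-binding fold, and a heme-binding domain known from the human protein. D2hgdh encodes the mitochondrial enzyme that turns D-2-hydroxyglutarate into 2-oxoglutarate, and Stk25 a Ste20-family kinase of the Golgi and of the striatin phosphatase complex. Ramp1 is the membrane partner that makes the receptor Calcrl a receptor for the neuropeptide CGRP. Kdm5b removes methyl groups from lysine 4 of histone H3, a mark of active promoters. Gin1 is derived from the integrase of a gypsy-type mobile element.

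In the order of the 1204 protein-coding genes of chromosome 1, 5 of the 6 genes stand before Il10 and Kdm5b stands after it. Ramp1 is separated from Il10 by 151 genes, Stk25 by 108, Thap4 by 106, D2hgdh by 102, Gin1 by 88 and Kdm5b by 60. Stk25, Thap4 and D2hgdh lie almost side by side, with only Bok between Stk25 and Thap4, and with Atg4b, Dtymk and Ing5 between Thap4 and D2hgdh. The members thus do not all stand next to one another. The genes set aside are separated from Il10 by 8 (Ctse), 16 (Mcm6), 76 (Bcl2) and 252 genes (Ap1s3). All but Ap1s3 lie within the span of the members. Whether these genes belong to 1 region around Il10 was not tested.

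The DNA just before the start is shown for Thap4, a member that lay lower, and for Ramp1, the member that lay higher, so that their base composition can be compared. For both, bases outside any other annotated gene could be taken. RefSeq (GRCm38.p6) gave promoter windows for all 6 genes, with an outer and an inner window for Thap4, of which the outer is shown. Capitals mark matches to the letters GGGCGG, the core of a GC box, on either strand.
Thap4, chr1:93754839-93754904, minus strand, the 66 bases before the start that lie outside the neighbouring gene Atg4b: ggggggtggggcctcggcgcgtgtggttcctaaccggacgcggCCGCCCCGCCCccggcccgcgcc
Ramp1, chr1:91179572-91179821, plus strand, the 250 bases before the start: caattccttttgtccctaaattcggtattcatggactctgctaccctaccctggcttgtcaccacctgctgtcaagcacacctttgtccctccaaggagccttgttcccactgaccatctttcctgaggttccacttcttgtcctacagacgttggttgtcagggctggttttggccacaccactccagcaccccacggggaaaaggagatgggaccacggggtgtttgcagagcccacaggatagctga
The Thap4 stretch carries 2 overlapping matches on the opposite strand, and the Ramp1 stretch carries none. Over the whole 250 bases before the start, the outer Thap4 window is 77.2% G and C with 45 CpG pairs, the Ramp1 window 54% with 4, and the median of all 32851 windows is 52.4% with 6. GGGCGG is found in 5 of the 7 member windows (D2hgdh, Gin1, Kdm5b, Stk25 and Thap4) and in 32.7% of all windows. CCAAT is found before Stk25 and in the inner Thap4 window (33.8% of all windows), and CCGGAA before Gin1 (12%). Among the member windows, TATAAA (12.4%) and TTCNNNGAA (7.02%) are found only in the inner Thap4 window. That window is 45.2% G and C with 1 CpG pair. No member window holds CACGTG, which 6.02% of all windows hold. These are matches of letters on both strands, not sites known to be bound.

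The deposited values correspond to MAS5 signals with the same trimmed mean of 500 on every array, and array medians lay between 59.5 and 89.3. The probe set of Ebi3 followed the labels, at 15.2 to 72.5 in the double knockout and 3 to 39.5 in Ebi3 –/–, against 1062.5 to 2057.3 in Il10 –/– and 1159 to 1727.8 in wild type. That of Il10 did not separate the genotypes. It read 1016.7 to 2639.6 in the double knockout and 1027.8 to 2038.2 in Il10 –/–, against 574.4 to 2384.6 in Ebi3 –/– and 184.5 to 2939.8 in wild type. The labels do not give the deleted part of Il10, so this probe set checks nothing. All 8 Treg markers lay above the 40th percentile of the signals on all 12 arrays. Foxp3 read 4945.3 to 7955.

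Of the 16 probe sets, 5 read lower on all 6 arrays without Il10 than on any of the 6 arrays with it, and 2 read higher on all 6. The other 9 overlapped. Among all tested probe sets 29 (0.0928%) lay wholly lower and 40 (0.128%) wholly higher. Because the members were picked for this pattern, nothing is read from these shares.

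The Thap4 probe set 1447754_x_at read 405.9, 476 and 381.2 in the double knockout and 431.8, 486.8 and 433.9 in Il10 –/–. It read 1154.4, 2567.4 and 1418.3 in Ebi3 –/– and 1346.8, 2133.8 and 1124.1 in wild type. Its lowest value with Il10 was thus above its highest value without Il10. The average Il10 difference is the mean of double knockout minus Ebi3 –/– and Il10 –/– minus wild type, on the log2(signal + 20) scale. For this probe set it was -1.78 ± 0.221 (SE), or 3.44-fold lower. Errors given for the members come from the fit without a batch term, unless stated.

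D2hgdh, measured by 1437840_s_at, read 495.7, 740 and 933.6 in the double knockout and 665.4, 981.4 and 778.1 in Il10 –/–. It read 1782.6, 1934.2 and 2646.1 in Ebi3 –/– and 1837, 2261.7 and 2254.8 in wild type. The highest array without Il10, at 981.4, was well below the lowest array with it, at 1782.6. The average Il10 difference was -1.46 ± 0.188 (SE), 2.76-fold lower.

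Stk25 has 1 probe set on the array, 1416770_at, which read 206.1, 261.6 and 123.2 in the double knockout and 149.8, 222 and 116.8 in Il10 –/–. It read 748.3, 409.5 and 374.7 in Ebi3 –/– and 736.2, 511.6 and 358.1 in wild type. Both groups with Il10 were highest in batch 1, and both groups without it were lowest in batch 3. The average Il10 difference was -1.43 ± 0.270 (SE), 2.70-fold lower.

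The Kdm5b probe set 1427142_s_at read 180, 332.2 and 190.1 in the double knockout and 251.9, 263.6 and 182.6 in Il10 –/–. It read 541.6, 1000.4 and 395.2 in Ebi3 –/– and 532, 1012.6 and 396.2 in wild type. All 4 genotypes were highest in batch 2, and the groups stayed apart within every batch. The average Il10 difference was -1.32 ± 0.288 (SE), 2.50-fold lower.

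Gin1, measured by 1429118_a_at, read 20.9, 26.4 and 19.4 in the double knockout and 4.4, 5.5 and 28.8 in Il10 –/–. It read 74.7, 77.1 and 150 in Ebi3 –/– and 131.9, 81 and 135.1 in wild type. It was below the 40th percentile on all 6 arrays without Il10 (a signal of 35.5 to 52.8, depending on the array) and reached it on the 6 with Il10 alone. It therefore passed the filter only through the group where it was high. Its average Il10 difference of -1.78 ± 0.267 (SE) depends on the amount added to low signals, and was -0.81 with 100 in place of 20.

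Ramp1 lay in the opposite direction. Its probe set 1417481_at read 4037.7, 5730.5 and 5664.7 in the double knockout and 3839.1, 5355.4 and 4580.8 in Il10 –/–, against 2420.6, 3801.8 and 2699.3 in Ebi3 –/– and 2154.5, 2983.8 and 2603.4 in wild type. The average Il10 difference was 0.81 ± 0.164 (SE), 1.75-fold higher. The groups came close, with the highest Ebi3 –/– array just below the lowest Il10 –/– array. A second probe set, 1431413_at, read 206.9, 185.2 and 294.5 in the double knockout and 238.6, 306.5 and 314.6 in Il10 –/–. It read 65.5, 135 and 55.4 in Ebi3 –/– and 68.4, 92.3 and 23 in wild type. Its average Il10 difference was 1.65 ± 0.283 (SE), 3.15-fold higher, and 1.06 with 100 in place of 20 added to the signal.

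**Figure D1:**
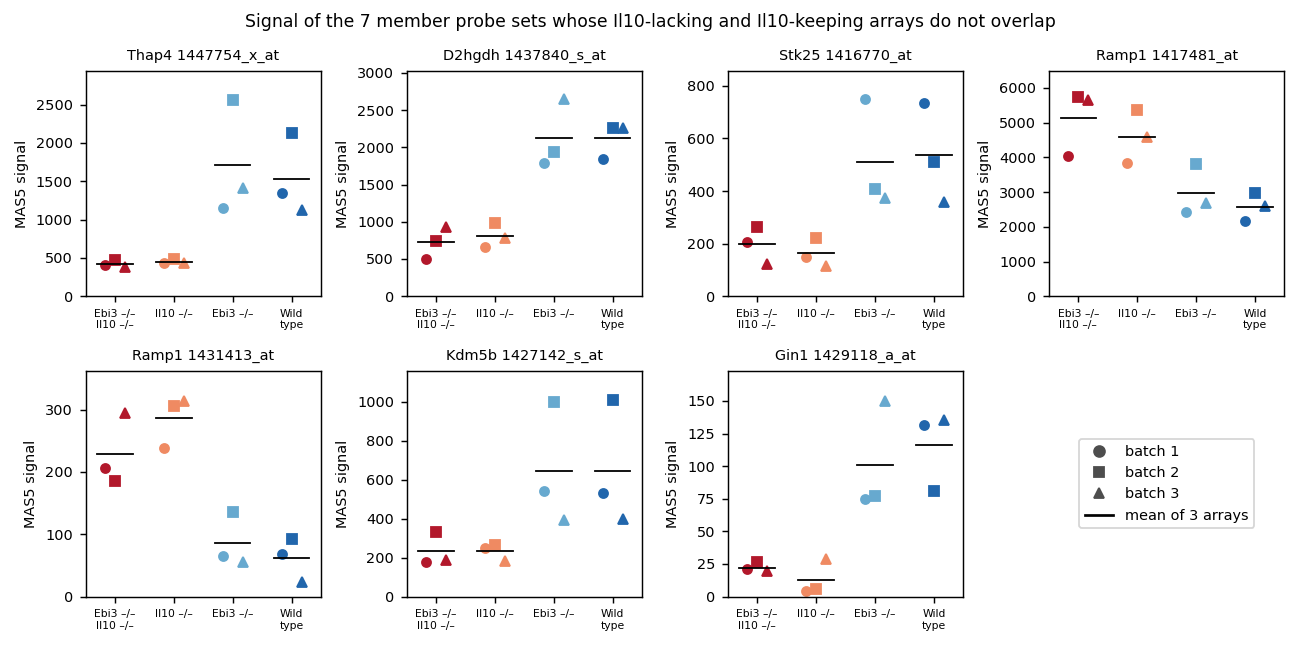
MAS5 signal (linear axis from 0) of the 7 probe sets whose arrays without and with Il10 do not overlap, by genotype; each point is 1 array, its shape the batch, and the line the mean of 3 arrays. The 5 probe sets of Thap4, D2hgdh, Stk25, Kdm5b and Gin1 are lower in both genotypes without Il10, and the 2 of Ramp1 are higher.

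Some genes had probe sets that disagreed, in size or in sign. For Thap4, 1424052_at read 544.8, 567.6 and 910.7 in the double knockout and 552.5, 840.1 and 638.3 in Il10 –/–, against 649.1, 1138.1 and 601.4 in Ebi3 –/– and 765.3, 957.5 and 771 in wild type. These groups overlapped, with an average Il10 difference of -0.26 ± 0.212 (SE) beside the -1.78 of 1447754_x_at. The other Thap4 probe sets, 1458185_at at 0.26 and 1443311_at at -0.12, overlapped as well. The last of these reached the 40th percentile on 7 arrays only.

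For Kdm5b the probe set with the highest mean, 1427143_at, did not separate by Il10. It read 1274, 1081.5 and 873.6 in the double knockout and 1219.2, 974.2 and 659.7 in Il10 –/–, against 736.8, 1448.1 and 699.5 in Ebi3 –/– and 1215.1, 1340.3 and 890 in wild type. Its average Il10 difference was -0.03 ± 0.228 (SE), beside -1.32 for 1427142_s_at. Those of 1442278_at (-0.20 ± 0.393, SE) and 1457482_at (0.19 ± 0.401, SE) were smaller than these errors. With batch as a replicate block the errors were 0.208 and 0.188, about the size of the values. The average Il10 differences of all 3 probe sets changed sign when certain single arrays were left out, as did that of Thap4 1443311_at.

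For D2hgdh, 1437243_at read 282.4, 224.4 and 196.5 in the double knockout and 315.7, 194.6 and 245.9 in Il10 –/–, against 318.5, 195.9 and 397.8 in Ebi3 –/– and 499.7, 205.8 and 527.4 in wild type. It lay lower in batches 1 and 3 and level in batch 2, with an average Il10 difference of -0.45 ± 0.267 (SE). For Gin1, 1429728_at read 327.6, 289.7 and 514.1 in the double knockout and 336.7, 275.7 and 478.4 in Il10 –/–, against 512.7, 304.5 and 493.6 in Ebi3 –/– and 471.5, 433.6 and 510.8 in wild type. The average difference was -0.30 ± 0.215 (SE), or ± 0.139 (SE) with the block, and the groups overlapped. This difference, too, had the sign of that of the other Gin1 probe set and was smaller.

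The third Ramp1 probe set, 1447474_at, ran against the other two. It read 43.5, 74.8 and 71.4 in the double knockout and 100.3, 44.2 and 34.9 in Il10 –/–, against 79.2, 120.9 and 100.1 in Ebi3 –/– and 102.4, 65.3 and 84.6 in wild type. Its groups overlapped and its average Il10 difference was -0.50 ± 0.252 (SE), opposite in sign to those of the other Ramp1 probe sets.

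In Affymetrix probe set names the letter a marks probes shared by transcripts of 1 gene, s marks probes shared by several transcripts, and x marks sets in which some probes resemble other sequences. Of the 16 probe sets 4 carry such a letter, and all 4 are among the 5 that lay wholly lower. Of the 12 without a letter 3 did not overlap, that of Stk25 and the 2 of Ramp1. Among all tested probe sets 23.2% carry a letter, as do 10 of the 29 that lay wholly lower. For Thap4, D2hgdh, Kdm5b and Gin1 the lack of overlap thus rests on a lettered probe set each, and their probe sets without a letter overlapped. The part of probe choice or of a shared sequence in this was not tested.

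Each array without Il10 was then set against the arrays of its own batch that keep it. In the 6 comparisons that match for Ebi3 genotype, the log2 difference of Thap4 1447754_x_at lay between -2.38 and -1.33, that of D2hgdh 1437840_s_at between -1.81 and -1.19 and that of Kdm5b 1427142_s_at between -1.86 and -0.98. Stk25 ranged more widely, from -2.15 for Il10 –/– minus wild type in batch 1 to -0.61 for double knockout minus Ebi3 –/– in batch 2. Gin1 1429118_a_at lay between -2.64 and -1.07. Ramp1 1417481_at lay between 0.59 and 1.06, and 1431413_at between 0.40 and 2.96. With the comparisons across Ebi3 genotypes added, 12 of 12 were below 0 for each of the 5 lower probe sets and 0 of 12 for both higher ones. For these probe sets the counts follow from the lack of overlap and add nothing to it. The 9 overlapping probe sets had between 4 and 10 of 12 below 0.

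**Figure D2:**
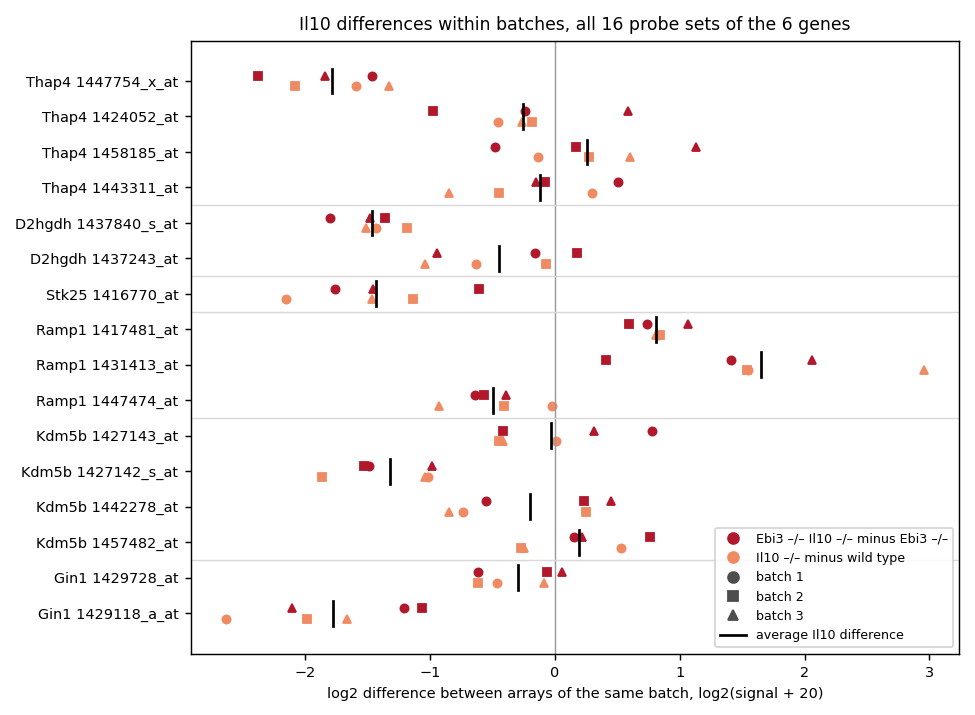
Difference between arrays of the same batch, on the log2(signal + 20) axis, for all 16 probe sets; dark points are double knockout minus Ebi3 –/–, light points Il10 –/– minus wild type, shapes are batches and the bar is the average Il10 difference. Thap4, D2hgdh, Ramp1, Kdm5b and Gin1 each have a probe set on 1 side of 0 in all 6 comparisons and at least 1 whose points cross 0 or lie on the other side.

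The contrast of double knockout with Ebi3 –/– and that of Il10 –/– with wild type share no array. Thap4 1447754_x_at had a log2 difference of -1.90 in the double knockout contrast and -1.67 in the Il10 –/– contrast, and Kdm5b 1427142_s_at had -1.34 and -1.31. D2hgdh 1437840_s_at had -1.55 in the double knockout contrast and -1.38 in the Il10 –/– contrast. Stk25 had -1.28 in the double knockout contrast and -1.59 in the Il10 –/– contrast, and Gin1 1429118_a_at had -1.46 and -2.10. These values lay close together for Thap4, Kdm5b and D2hgdh. Those of Gin1 were further apart, but they rest on low signals without Il10, and nothing is read from that gap. For Ramp1 the values were 0.80 (1417481_at) and 1.29 (1431413_at) in the double knockout contrast, against 0.83 and 2.02 in the Il10 –/– contrast. The values of 1431413_at were thus further apart than those of Gin1. Both contrasts entered the choice of the genes, so that the same sign in both is no separate evidence.

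Over all genes, limma without a batch term called 2 probe sets in Il10 –/– against wild type (0.0064%), 2 in the double knockout against Ebi3 –/– (0.0064%) and 4 in the average Il10 difference (0.0128%). With batch as a replicate block the counts were 12 (0.0384%), 6 (0.0192%) and 20 (0.064%). Members among them numbered 0, 0 and 2 without the block and 3, 2 and 7 with it. The 2 are Thap4 1447754_x_at and D2hgdh 1437840_s_at, and the 7 are those that did not overlap. Nothing is read from these counts, because the same contrasts chose the genes. Among chromosome 1 probe sets ranked by the blocked fit, Mcm6 1438852_x_at (-0.86) stood last inside the threshold and Ramp1 1431413_at (1.65), the last member, just before it, and Tmem37 1417611_at (0.98) and Sag 1419025_at (-0.92) stood just outside it.

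The genotype of Ebi3 was not used in the choice, and it was tested. The question was whether the 6 genes also differ with loss of Ebi3. None of the 16 probe sets passed in the average Ebi3 difference, which is the mean of double knockout minus Il10 –/– and Ebi3 –/– minus wild type. The lowest adjusted p (limma, Benjamini-Hochberg over 31235 probe sets) was 1.00 without batch and 0.994 with the replicate block. Over all genes 1 probe set passed without the block (0.0032%) and 2 with it (0.0064%).

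The average Ebi3 differences of the 16 probe sets lay between -0.22 and 0.25. For Thap4 1447754_x_at the value was 0.01 with a 95% interval of -0.29 to 0.32, and for Kdm5b 1427142_s_at it was -0.01 (-0.34 to 0.32), both from the blocked fit. D2hgdh 1437840_s_at read -0.10 (-0.36 to 0.17) and Stk25 0.08 (-0.30 to 0.46). The Ramp1 probe set 1417481_at read 0.17 (-0.02 to 0.37). Gin1 1429118_a_at read 0.12, a value limited by its low signals without Il10, and no bound is taken from it. Over the other 6 non-overlapping probe sets these intervals reached from -0.48 to 0.57, which leaves room for a difference of that size in either direction. Misses of the threshold do not show that Ebi3 had no part.

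The interaction is the Il10 difference in the absence of Ebi3 minus that in its presence. Both of those differences entered the choice, which favours genes where they are alike, so the interaction is not free of the choice and its values for the members are a description. None of the 16 probe sets was called. Over all genes it passed for 0 (0%) without the block and 0 (0%) with it by limma. At an unadjusted p under 0.05 there were 400 without and 1232 with it. Apart from Gin1 1429118_a_at, whose value of 0.64 rests on low signals, the values of the other 15 ran from -0.73 for Ramp1 1431413_at (95% interval -1.78 to 0.33) to 0.51 for Kdm5b 1427143_at (-0.14 to 1.16). That of Thap4 1447754_x_at was -0.22 (-0.83 to 0.39), and that of Kdm5b 1427142_s_at was -0.03 (-0.69 to 0.63). With 3 arrays a genotype, these intervals are wide, and over the other 6 non-overlapping probe sets they reach from -1.78 to 1.07.

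**Figure D3:**
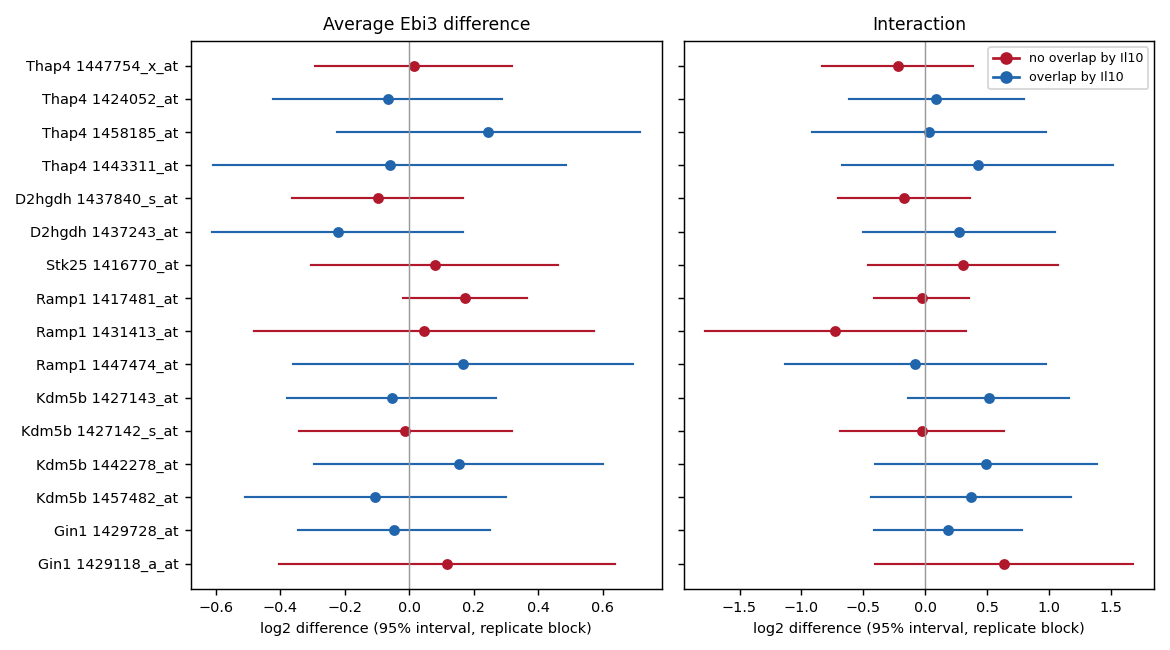
Average Ebi3 difference (left) and interaction (right) of the 16 probe sets in log2 units, with 95% intervals from the limma fit with batch as replicate block; red marks the 7 probe sets that did not overlap by Il10. Every interval includes 0. The interaction is not independent of the choice of genes, and Gin1 1429118_a_at is limited by low signals.

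Around the members, the 10 nearest measured genes on each side make a list of 70 genes with 137 tested probe sets. In the average Il10 difference 0 of them rose and 1 fell with the replicate block, and 0 passed without it. Every chromosome 1 probe set called in that contrast with the block belongs to a member or to a gene set aside. Members are not in the list, so the count follows from the choice of genes and nothing is read from it. The one that fell was Bcl2 1443837_x_at, which encodes an inhibitor of cell death (-1.49, limma adjusted p = 0.00707 with the block). It was known to differ when the list was made, and its adjusted p without the block was 1.00. It read 1041.7, 289.6 and 157.6 in the double knockout and 1018.5, 337.8 and 267.6 in Il10 –/–. It read 1837.2, 651.3 and 950.5 in Ebi3 –/– and 2307.6, 885.8 and 1201.3 in wild type. The batches differed widely, and only within each batch did the groups stand apart.

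The median average Il10 difference of the list was 0.08, beside 0.02 over all tested probe sets, and its values ran from -1.49 to 1.71. Klhl12 1435786_at, of a substrate adaptor for ubiquitin ligation, was the 1 neighbour that read wholly lower without Il10. It read 358.4, 417.4 and 463.4 in the double knockout and 309.9, 280.8 and 474.3 in Il10 –/–, against 574, 532.1 and 680.4 in Ebi3 –/– and 665.6, 566.9 and 487.3 in wild type. Its difference of -0.60 did not pass (limma adjusted p = 0.309 with the block). Chil1, a chitinase-like protein (1.71, limma adjusted p = 0.167 with the block), and Rab17, a small GTPase (0.83, limma adjusted p = 0.254 with the block), did not pass either.

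The genes directly between the close members were also read. Bok, a relative of Bcl2, stands between Stk25 and Thap4 and read -0.27 ± 0.346 (SE with the block). Atg4b is a protease of autophagy whose annotated span reaches into the outer Thap4 window. It read 0.07 ± 0.140 and -0.02 ± 0.118 at its brighter probe sets 1424102_at and 1424103_at, and -0.53 ± 0.331 at 1440512_at. Dtymk, the thymidylate kinase, read -0.21, 0.18 and -0.23 at its 3 probe sets. The Ing5 probe sets, for a subunit of histone acetyltransferases, ranged from -0.09 to 1.05, the highest being 1442094_at (limma adjusted p = 0.285 with the block). None of these passed, while Stk25, Thap4 and D2hgdh on either side had differences of -1.43, -1.78 and -1.46. The members were chosen for differing, and the genes between them are those the choice left out. Nothing is therefore read from this contrast.

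**Figure D4:**
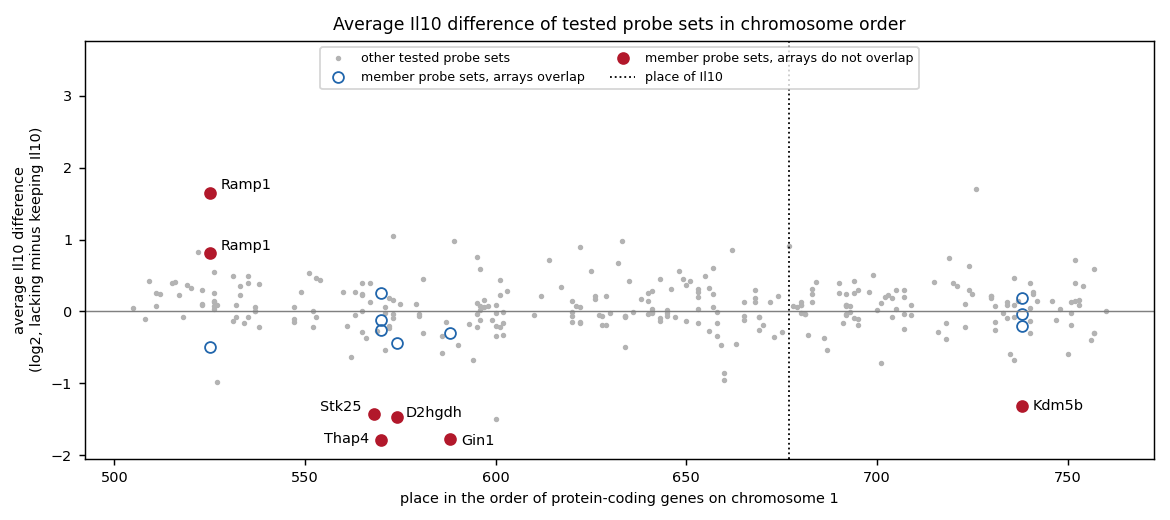
Average Il10 difference (log2, without minus with Il10) of tested probe sets against the place of their gene in the order of protein-coding genes on chromosome 1, around the members; filled points are member probe sets that did not overlap, open circles those that did, and the dotted line marks Il10. Filled points lie between -1.78 and 1.65 among grey points, of which many are near 0. Grey points include genes set aside: Ctse 1418989_at at 3.51, Bcl2 1443837_x_at at -1.49, and Mcm6 at -0.96 and -0.86. Chil1 (1.71) is grey too. So are Tmem37 (0.98), Klhl12 (-0.60) and Rab3gap1 (0.49), which, like Ctse 1418989_at, did not overlap.

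Related genes did not pass in any contrast, with or without the block. They are not confined to other chromosomes, since Rbbp5, of the histone H3 list, lies on chromosome 1 between Il10 and Kdm5b. Of the other THAP-domain genes 7 were tested with 12 probe sets, with a median average Il10 difference of -0.05. Those of smallest p were Thap12 (-0.27, limma adjusted p = 0.533 with the block) and Thap2 (0.40, limma adjusted p = 0.566 with the block). Among 9 genes that make or use 2-hydroxyglutarate or its products the median was 0.01, with Phgdh, of serine synthesis, at 0.61 (limma adjusted p = 0.389 with the block) and Etfb, an electron carrier of mitochondria, at -0.31 (limma adjusted p = 0.493 with the block). The median of 9 genes of Stk25-like kinases and their striatin complex was -0.05, with Strn, a scaffold of that complex, at -0.30 (limma adjusted p = 0.475 with the block) and Cab39, an activating partner of such kinases, at -0.30 (limma adjusted p = 0.496 with the block).

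Of the CGRP and adrenomedullin receptor genes 7 were tested, and their median was -0.005. Adm, which encodes adrenomedullin, read 0.62 (limma adjusted p = 0.503 with the block) and Ramp3 read 0.60 (limma adjusted p = 0.569 with the block). The partner receptor Calcrl read -0.18 and Ramp2 read -0.13. Among 14 other genes that write or erase methylation of lysine 4 of histone H3 the median was 0.04, with Kmt2c, a methyltransferase, at -0.36 (limma adjusted p = 0.359 with the block) and Setd1a, another methyltransferase, at 0.49 (limma adjusted p = 0.455 with the block). Of other genes derived from mobile elements only Arc (0.46, limma adjusted p = 0.689 with the block) and Pgbd1 (-0.48, limma adjusted p = 0.706 with the block) were tested.

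Likeness to the members was measured by Pearson's r over the 12 arrays after the mean of each batch was removed. It is given without a test, since the points share genotypes and the members were chosen for differing by one of them. Nearest to Thap4 1447754_x_at were Kdm5b 1427142_s_at (0.977), Ptpn2 (0.951) and Dmtf1 (0.951). Nearest to D2hgdh 1437840_s_at were Thap4 1447754_x_at (0.941), Stk25 (0.938) and Kdm5b 1427142_s_at (0.933). Stk25 was most like Gin1 1429118_a_at (0.951), D2hgdh 1437840_s_at (0.938) and Sptbn1 (0.918). That Gin1 probe set passed the filter only through the arrays with Il10, so nothing is read from its likeness. Ramp1 1417481_at was most like Ctse (0.977), Il17re (0.974) and Ap1s3 (0.968). The brightest probe sets of Kdm5b and Gin1, which did not separate by Il10, had other nearest genes. For Kdm5b 1427143_at they were Ppp4r1l-ps (0.963), Mical1 (0.943) and Nup54 (0.941), and for Gin1 1429728_at they were Habp4 (0.920), Atm (0.919) and Zfp90 (0.904).

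Markers of other cells were read beside these results. Summed myeloid markers ranged from 1784.9 to 36769.4 on arrays without Il10 and from 2383.4 to 19572 on arrays with it. Summed CD8 T and NK cell markers ranged from 1520 to 4698.4 without Il10 and from 1197.3 to 3645.2 with it, and plasma cell markers from 858.2 to 5530.2 without Il10 and from 540.2 to 2166.8 with it. Neutrophil markers ranged from 1358.5 to 14405.6 without Il10 and from 969.1 to 12506.7 with it, and B cell markers from 674 to 6861.5 without Il10 and from 975 to 5666.4 with it. Erythroid markers were low throughout, at 89.7 to 275.3 without Il10 and 19.3 to 213.9 with it. The ranges overlap in each case. Tested markers with an average Il10 difference above 0 numbered 3 of 3 for plasma cells (median 0.29), 3 of 3 for myeloid cells (0.32), 3 of 4 for neutrophils (0.35), 4 of 4 for dendritic cells (0.27), 4 of 5 for CD8 T and NK cells (0.27), 2 of 3 for B cells (0.01) and 1 of 1 for erythroid cells (0.79), beside 5 of 8 for the Treg markers (0.06). No marker gene passed in the average Il10 difference with the block. In bulk RNA, fewer cells of a type and less RNA per cell cannot be told apart, and the part of other cells in the member signals was not tested.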

How the data were processed

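Per the submitters' processing notes, signals were made with MAS5 and Partek 6.4. The scale of the deposited values was read from the values themselves: after the natural log is undone and 20 taken off, low MAS5 signals come out as multiples of 0.1. Values were converted to log2(signal + 20) with no further normalization. Depth is not defined for arrays, and their number limits precision. Probe sets were named from the platform annotation and placed in gene order with RefSeq (GRCm38.p6), whose coordinates were not used with the arrays. A probe set was tested where 3 or more arrays had it at or above their own 40th percentile (31235 tested, 13802 not). One model of 4 genotypes was fitted with limma 3.58.1 in R 4.3.3 (lmFit, eBayes with trend), with Benjamini-Hochberg adjustment and a threshold of 0.05. It has no batch term, and batch as a replicate block is the alternative. The labels name the batch, and arrays of the same number deviated together (correlations of 0.325 to 0.664 over 18 pairs). The fits were also run on simulated data with normal noise, in which only probe sets with a mean above the median were changed. That run does not cover changes at low signals or other kinds of spread. The 6 genes and the neighbour and family lists were chosen with earlier results of these data known. All probe sets of the members are given. Neighbours and relatives are named if called, and otherwise the 2 of smallest p in their list. Chil1, Rab17, Klhl12, Calcrl, Ramp2 and the genes between members were named after their values were seen.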

Additional observations from a re-analysis of the deposited data

How the results depend on the processing

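Counts of called probe sets over all genes depended on batch. With the replicate block they were 12 for Il10 –/– minus wild type, 6 for double knockout minus Ebi3 –/–, 20 for the average Il10 difference, 2 for the average Ebi3 difference and 0 for the interaction. With the block and no filter on low signals, an alternative chosen after seeing the data, they were 9, 5, 17, 2 and 0. Centring each array on its median gave 0 for double knockout minus Ebi3 –/– and 2 for the average Il10 difference. Leaving out 1 array at a time gave 2 to 2 calls for Il10 –/– minus wild type (2 to 7 with the block), 2 to 3 for double knockout minus Ebi3 –/– (4 to 7) and 2 to 3 for the average Il10 difference (12 to 33). It gave 1 to 12 for the average Ebi3 difference (1 to 32) and 0 to 0 for the interaction (0 to 1). Both 12 and 32 for Ebi3 came without Ebi3 –/– replicate 3, 33 came without wild type replicate 1, and 12 with the block came without Il10 –/– replicate 1, wild type replicate 3 or Ebi3 –/– replicate 3. The cause was not tested. Of the 7 members called in the average Il10 difference with the block, 5 to 7 were called in these fits, and 0 to 1 were called without it. Of the 2 called without the block, median centring left 0 and quantile normalization left 1, that of Thap4 1447754_x_at. With the block and no filter 6 of the 7 were called, and Ramp1 1431413_at was not.

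The 7 non-overlapping probe sets kept the sign of their average Il10 difference under all alternatives run. Where the groups do not overlap, leaving out an array without the block, or changing the amount added, cannot reverse the sign. That part of the result was fixed beforehand. Among the overlapping ones, leaving out 1 array moved it across 0 for Thap4 1443311_at (-0.31 to 0.15), Kdm5b 1427143_at (-0.17 to 0.13), Kdm5b 1442278_at (-0.38 to 0.12) and Kdm5b 1457482_at (-0.040 to 0.44). No member passed in the average Ebi3 difference or the interaction under any of them, the lowest adjusted p (limma) being 0.906 and 0.898. Uncalled values near 0 changed sign. The average Ebi3 difference of Thap4 1447754_x_at was -0.0048 after quantile normalization and that of Ramp1 1431413_at was -0.0205 with 100 added to the signal, while the interaction of Thap4 1458185_at was -0.049 after centring. With 1 array left out, the average Ebi3 difference ranged for Thap4 from -0.15 to 0.14 (1447754_x_at), from -0.22 to 0.074 (1424052_at), from -0.053 to 0.49 (1458185_at) and from -0.33 to 0.13 (1443311_at). It ranged from -0.20 to 0.022 for D2hgdh 1437840_s_at, from -0.071 to 0.22 for Stk25 and from -0.16 to 0.22 for Ramp1 1431413_at. For Kdm5b it ranged from -0.22 to 0.081 (1427143_at), from -0.19 to 0.17 (1427142_s_at), from -0.17 to 0.34 (1442278_at) and from -0.35 to 0.12 (1457482_at), and for Gin1 from -0.16 to 0.067 (1429728_at) and from -0.022 to 0.28 (1429118_a_at). The interaction ranged for Thap4 from -0.48 to 0.11 (1447754_x_at), from -0.22 to 0.37 (1424052_at), from -0.46 to 0.63 (1458185_at) and from -0.12 to 0.80 (1443311_at). It ranged from -0.37 to 0.070 for D2hgdh 1437840_s_at, from -0.16 to 0.16 for Ramp1 1417481_at, from -0.34 to 0.32 for Ramp1 1447474_at, from -0.40 to 0.33 for Kdm5b 1427142_s_at, from -0.061 to 0.86 for Kdm5b 1457482_at and from -0.053 to 0.39 for Gin1 1429728_at.

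Low signals limit Gin1 1429118_a_at, Ramp1 1447474_at and Thap4 1443311_at most. The deposited table holds signals only, so that brightness over background is not known here.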
